A study of Mus musculus with 12 samples.

Results

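The set described here consists of 40 genes that act in G2, the gap between DNA replication and division, and in mitosis. It was read on 12 one-colour microarrays of mouse embryonic fibroblasts, primary connective-tissue cells prepared from E12.5 embryos and grown in culture. The members were given as a list of gene symbols and were found on the array by matching each probe's transcript accession to RefSeq symbols. All 40 were measured, by 57 probes, among 19507 genes tested in all. The cells came from wild-type mice or from Itpr2 knock-out mice. Itpr2 is the gene of 1 of the receptors through which inositol trisphosphate releases calcium from the endoplasmic reticulum. RNA was taken after 3 passages (early) or 5 passages (late), which gave 4 groups of 3 arrays: wild-type early, knock-out early, wild-type late and knock-out late. The labels name no other allele, agent or selection, and the design text says that each genotype was represented by 3 independent sources. The comparison asks how loss of the channel and a longer time in culture bear on the cells' transcripts. All levels below are log2 values relative to the 75th percentile of each array, so that 1 unit is a doubling, and levels of different genes are not compared with one another.

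As background, entry into mitosis is driven by cyclin-dependent kinase 1 bound to cyclin A or cyclin B, once CDC25 phosphatases have removed the phosphates that hold the kinase inactive. Polo-like and Aurora kinases then build the spindle, the checkpoint proteins BUB1, BUBR1 and MAD2 delay separation of the chromosomes until all are attached, and CDC20 with the anaphase-promoting complex ends the delay by marking securin and cyclin B for destruction. Transcripts of these genes rise together in G2, under B-MYB with the MuvB core and then FOXM1, and are held down in resting cells by the DREAM complex. In cultured embryonic fibroblasts the level of such transcripts depends on how much of the culture is dividing, and it is commonly lower as a primary culture is passaged towards senescence.

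MuvB complexes contact promoters at the cell cycle homology region, with the letters TTTGAA or TTCGAA, and the factor NF-Y binds CCAAT. RefSeq windows of 300 bases, from 250 before to 50 after the transcription start (assembly GRCm38.p6), were at hand for 32 of the 40 members, 34 windows in all because Ect2 and Prc1 had 2. On either strand, TTTGAA or TTCGAA occurred in 26 of the 34 windows (76.5%), against 19.2% of all 32851 windows. TTTGAA occurred in 24 (70.6%, against 17.9%) and TTCGAA in 4 (11.8%, against 1.6%). At least 1 CCAAT occurred in 27 (79.4%, against 37.4%), and at least 2 in 17 (50%, against 11.7%). Both kinds of motif stood together in 24 windows (70.6%, against 7.5%). TTCGAA reads the same on both strands, and matches of different motifs can share end letters. A match describes the sequence, not a binding event. Birc5, Mad2l1, Melk, Nusap1 and Pttg1 had none of the 3 motifs in their window. The windows of 4 members are shown because Cdc25b and Aurka were the members that passed a test, and Plk1 and Cdc20 were both low in late passage in either genotype. Sequences run 5′ to 3′ on the strand of the gene, and capitals mark the 3 motifs, with ATTGG for a CCAAT on the opposite strand.
Cdc25b (chr2:131186698-131186997, + strand): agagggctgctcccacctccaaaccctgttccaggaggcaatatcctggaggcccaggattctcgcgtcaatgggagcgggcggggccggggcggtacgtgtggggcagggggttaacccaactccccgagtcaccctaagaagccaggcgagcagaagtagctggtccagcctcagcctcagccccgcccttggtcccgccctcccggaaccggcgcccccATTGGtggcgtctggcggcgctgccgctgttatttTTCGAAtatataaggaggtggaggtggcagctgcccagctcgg
Aurka (chr2:172370521-172370820, - strand): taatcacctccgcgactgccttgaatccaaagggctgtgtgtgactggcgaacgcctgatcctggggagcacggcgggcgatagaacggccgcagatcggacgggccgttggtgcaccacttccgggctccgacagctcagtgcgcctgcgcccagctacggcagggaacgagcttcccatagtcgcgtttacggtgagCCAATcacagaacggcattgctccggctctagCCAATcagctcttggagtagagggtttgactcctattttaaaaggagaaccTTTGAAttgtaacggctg
Plk1 (chr7:122159185-122159484, + strand): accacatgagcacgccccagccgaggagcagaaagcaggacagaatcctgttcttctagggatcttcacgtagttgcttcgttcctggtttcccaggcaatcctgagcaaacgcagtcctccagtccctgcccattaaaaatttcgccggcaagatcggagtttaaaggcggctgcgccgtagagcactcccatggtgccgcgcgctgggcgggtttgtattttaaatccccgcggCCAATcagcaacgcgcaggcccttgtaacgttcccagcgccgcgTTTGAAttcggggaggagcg
Cdc20 (chr4:118437294-118437593, - strand): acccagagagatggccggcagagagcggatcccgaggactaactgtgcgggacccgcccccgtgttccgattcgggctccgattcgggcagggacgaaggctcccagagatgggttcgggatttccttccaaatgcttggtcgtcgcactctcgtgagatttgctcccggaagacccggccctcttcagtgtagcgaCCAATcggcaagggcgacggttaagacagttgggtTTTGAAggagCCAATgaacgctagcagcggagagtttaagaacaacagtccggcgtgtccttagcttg
In Cdc25b the match to the cell cycle homology region is TTCGAA, and the other 3 windows carry TTTGAA. Aurka and Cdc20 hold 2 CCAAT matches each, and Cdc25b and Plk1 hold 1.

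The 75th percentile of signal, to which all levels are relative, lay between 569 and 902 intensity units. It went largely with passage, at 569 to 691 on the early and 688 to 902 on the late arrays. Between 59.2% and 67.5% of probes were well above background. Of the members, 39 were well above background on all 12 arrays, and the exception was Aurkb, which passed on 2 of 3 arrays in each of 3 groups and on all 3 in knock-out late cells. Itpr2 itself did not check the genotype: its probe read 0.95 ± 0.28 (SD, n = 3) in wild-type early, 1.35 ± 0.23 in knock-out early, 1.61 ± 0.11 in wild-type late and 1.76 ± 0.058 in knock-out late cells, and which part of the gene was deleted was not known from the labels. Itpr2 was thus not lower in either knock-out group, and wild-type and knock-out below mean arrays labelled so. All 16 fibroblast markers were well above background on every array. So were all 18 macrophage markers in every group, with a summed level (the sum of the markers' linear signals, each relative to the array's 75th percentile) of 67.1 to 130.6 in wild-type early, 64.8 to 85.9 in knock-out early, 98.4 to 162.2 in wild-type late and 47.5 to 92.0 in knock-out late cells. Each replicate number is also a slide, and each group kept 1 position on the slide, so position and group cannot be told apart.

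Replicate 3 of the wild-type late group stood apart for these genes. None of the 40 members was above its own 12-array mean on that array, and 25 had their lowest value of the 12 arrays there. The median member, centred on its own mean, was at -0.32 on that array, against 0.05 and 0.03 in the other two wild-type late arrays. The wild-type early arrays were at 0.08, 0.05 and 0.04, the knock-out early arrays at 0.08, 0.15 and 0.14, and the knock-out late arrays at -0.13, -0.20 and -0.01. The knock-out late arrays were thus lower than the knock-out early ones without overlap, while the wild-type late group held the other two arrays near the early level and the lowest array of all. Within a group the median SD of a member was 0.164 in wild-type early, 0.0840 in knock-out early, 0.219 in wild-type late and 0.0889 in knock-out late cells, against 0.214, 0.141, 0.160 and 0.0839 over all genes. The first principal component of the members held 51.4% of their variance, with this array at 1.98 and the next highest, knock-out late replicate 2, at 1.30.

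**Figure D1:**
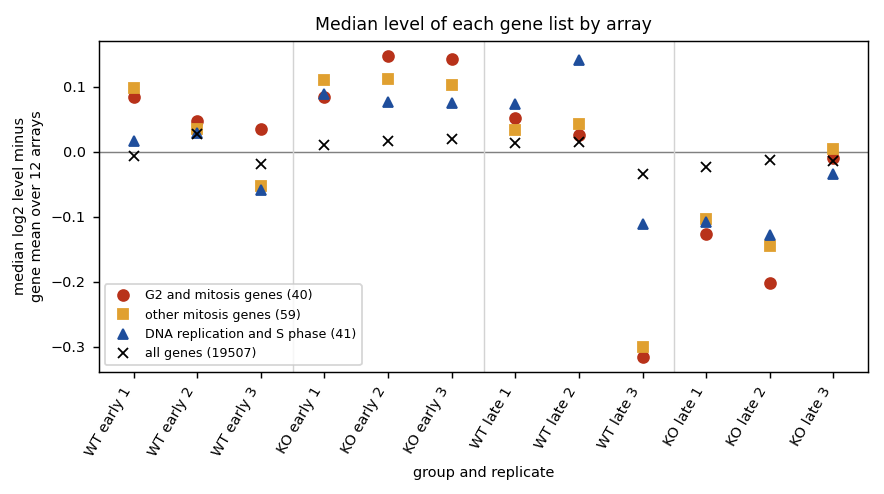
Median of the 40 members on each of the 12 arrays (log2, each gene centred on its own 12-array mean), beside the medians of 59 other mitosis genes, 41 DNA replication and S phase genes and all genes, 1 point per array and list. For the members, wild-type late replicate 3 lies at -0.32, below the knock-out late arrays (-0.20 to -0.01) and apart from the other wild-type late arrays.

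Wild-type early replicate 3 differed in another way. It held the highest value of the 12 arrays for 12 members and the lowest for 3, and it lay at -1.56 on the second component (18.2% of the variance), with the other arrays between -0.31 and 0.48. Cdc20, Plk1, Cdc25b and Hmmr had their highest value there. Mad2l1 and Incenp, genes of a checkpoint protein and of the passenger complex scaffold, and Kif20a, a kinesin gene of cytokinesis, had their lowest. Values without these arrays are given below for the counts and for the named members that they moved most.

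**Figure D2:**
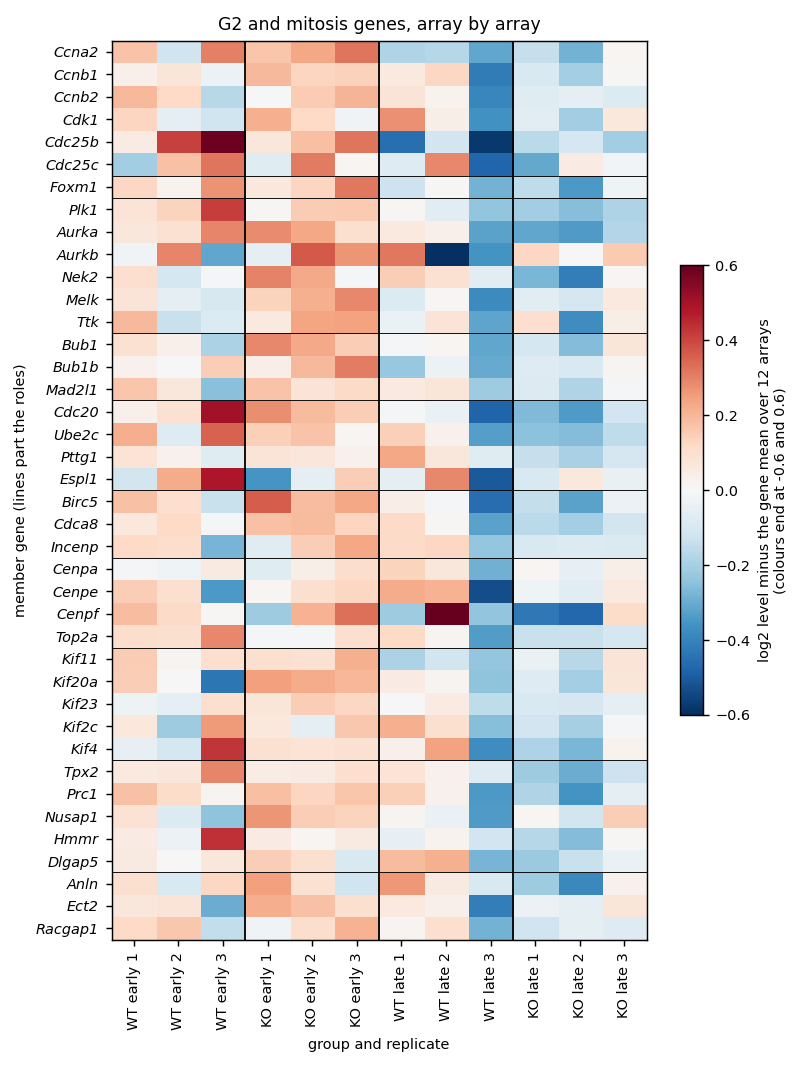
Level of each of the 40 members on each of the 12 arrays (log2, each gene centred on its own mean), with members ordered by role and arrays by group. Wild-type late replicate 3 is below the mean for all 40 members and knock-out late replicate 2 for 38, while knock-out early replicate 2 is above it for 37.

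In wild-type cells, 1 of the 40 members changed between early and late passage and none rose: Cdc25b fell. Of all genes tested, 10.6% were called in this comparison, 6.22% as higher and 4.37% as lower (limma, Benjamini-Hochberg adjusted p under 0.05). The members' differences, late minus early, had a median of -0.12, against 0.00 over all genes, and 33 of the 40 were negative, while 49.4% of all genes had a positive difference. At an unadjusted p under 0.05 there were 7 members (17.5%, against 28.4% of all genes). Groups did not overlap for 8 members, all lower late (Ccna2, Cdc25b, Foxm1, Plk1, Aurka, Bub1b, Cdc20 and Kif11), or 20% of the members against 13.8% of all genes lower without overlap. Most of the members' shift came with 1 array. By slide, the median difference was -0.02, 0.02 and -0.33, and without wild-type late replicate 3 it was 0.01 with 18 negative differences. These are bulk RNA samples, in which fewer dividing cells and less RNA per dividing cell cannot be told apart.

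Cdc25b encodes a phosphatase that activates cyclin-dependent kinase 1 at the start of mitosis. Cdc25b read -0.17, 0.18 and 0.36 in wild-type early, -0.15, -0.04 and 0.10 in knock-out early, -0.67, -0.34 and -0.80 in wild-type late and -0.39, -0.33 and -0.43 in knock-out late cells. All 3 wild-type late arrays lay below all 3 wild-type early arrays, and the knock-out groups did not overlap either. In wild-type cells it fell by 0.73 on the log2 scale (SE 0.15, 95% interval -1.07 to -0.39, a 1.66-fold change, limma adjusted p = 0.017), with differences of -0.50, -0.52 and -1.17 on the 3 slides. Without wild-type late replicate 3 the difference was -0.63 (adjusted p = 0.049). Without wild-type early replicate 3 it was -0.61. The call was lost without wild-type early replicate 2 (adjusted p = 0.051) and without wild-type late replicate 1 (adjusted p = 0.054). In knock-out cells its difference was -0.35 (adjusted p = 0.14), and the difference between the genotypes' responses was 0.38 (95% interval -0.10 to 0.86, adjusted p = 0.46).

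Of the other cyclins and the kinase they bind, Ccna2, which encodes cyclin A2, was at 2.04, 1.75 and 2.17 in wild-type early and 1.69, 1.70 and 1.55 in wild-type late arrays. The groups did not overlap, and the difference was -0.34 (adjusted p = 0.098), or -0.30 and -0.25 without the third replicate of wild-type late and of wild-type early. Ccnb1, Ccnb2 and Cdk1 themselves, the cyclin B genes and the kinase gene, differed by -0.10, -0.15 and 0.00 in wild-type cells, each with an adjusted p of at least 0.51. Less bright probes of the same genes differed by 0.02 and 0.11 for Ccnb1, and by 0.28 and -0.05 for Cdk1. Cdc25c, a second phosphatase of the family, differed by -0.19 (adjusted p = 0.59).

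Foxm1 encodes a transcription factor of G2 genes. Foxm1 read -0.26, -0.36 and -0.11 in wild-type early, -0.31, -0.25 and -0.06 in knock-out early, -0.50, -0.37 and -0.66 in wild-type late and -0.53, -0.72 and -0.41 in knock-out late cells. Late arrays were below early arrays in either genotype, and the differences, -0.27 in wild-type (adjusted p = 0.17) and -0.34 in knock-out cells (adjusted p = 0.071), did not pass the test. Without wild-type late replicate 3 the wild-type difference was -0.20, and without wild-type early replicate 3 it was -0.21. A second Foxm1 probe, less bright, went the other way in knock-out cells (0.15).

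Plk1, the polo-like kinase of mitotic entry and spindle assembly, was the kinase with the largest wild-type difference. Plk1 read 2.62, 2.67 and 2.95 in wild-type early, 2.55, 2.69 and 2.69 in knock-out early, 2.54, 2.47 and 2.30 in wild-type late and 2.33, 2.28 and 2.35 in knock-out late cells. Early and late arrays did not overlap in either genotype. The difference was -0.31 in wild-type (adjusted p = 0.091) and -0.32 in knock-out cells (adjusted p = 0.057), and in wild-type cells it was -0.24 without wild-type late replicate 3 and -0.21 without wild-type early replicate 3. Bub1b encodes BUBR1, which inhibits CDC20 while chromosomes are unattached. Bub1b read -0.91, -0.94 and -0.79 in wild-type early, -0.89, -0.74 and -0.63 in knock-out early, -1.16, -0.97 and -1.24 in wild-type late and -1.01, -1.03 and -0.92 in knock-out late cells. Again late arrays were below early ones without overlap in both genotypes, with differences of -0.25 and -0.23 (adjusted p = 0.14 and 0.13), the first of them -0.19 without wild-type late replicate 3 and -0.20 without wild-type early replicate 3.

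Cdc20 encodes the activator of the anaphase-promoting complex that starts anaphase. Cdc20 read 3.20, 3.26 and 3.67 in wild-type early, 3.45, 3.36 and 3.31 in knock-out early, 3.16, 3.13 and 2.69 in wild-type late and 2.90, 2.83 and 3.05 in knock-out late cells. Its highest value was on wild-type early replicate 3 and its lowest on wild-type late replicate 3, and late lay below early in both genotypes. The differences were -0.39 in wild-type (adjusted p = 0.14) and -0.44 in knock-out cells (adjusted p = 0.072). Leaving out wild-type late replicate 3 gave -0.23 in wild-type cells, and leaving out wild-type early replicate 3 gave -0.24. Birc5 encodes survivin, a subunit of the chromosomal passenger complex that guides Aurora kinase B. Birc5 read 4.10, 4.02 and 3.79 in wild-type early, 4.29, 4.11 and 4.15 in knock-out early, 3.96, 3.92 and 3.47 in wild-type late and 3.78, 3.60 and 3.89 in knock-out late cells. Wild-type early and late arrays overlapped, and the knock-out groups did not, with differences of -0.19 (adjusted p = 0.42) and -0.43 (adjusted p = 0.065). The wild-type difference was -0.03 without wild-type late replicate 3 and -0.28 without wild-type early replicate 3.

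Top2a encodes the topoisomerase that untangles sister chromatids. Top2a read 0.61, 0.60 and 0.80 in wild-type early, 0.50, 0.49 and 0.61 in knock-out early, 0.63, 0.52 and 0.17 in wild-type late and 0.38, 0.38 and 0.41 in knock-out late cells. Wild-type late replicates 2 and 3 were below all wild-type early arrays and replicate 1 was not, and the difference was -0.23 (adjusted p = 0.22), or -0.10 without wild-type late replicate 3 and -0.17 without wild-type early replicate 3. Kif11 encodes the kinesin that pushes the spindle poles apart. Kif11 read -1.22, -1.36 and -1.28 in wild-type early, -1.28, -1.29 and -1.16 in knock-out early, -1.57, -1.49 and -1.61 in wild-type late and -1.42, -1.54 and -1.30 in knock-out late cells. Its wild-type groups did not overlap and its arrays were close together within groups, with a difference of -0.27 (SE 0.087, adjusted p = 0.079), or -0.24 and -0.26 without the third replicate of wild-type late and of wild-type early. The other kinesin genes differed by -0.12 (Kif4) to 0.04 (Kif20a).

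Hmmr encodes a spindle-assembly protein. Hmmr read 0.56, 0.48 and 0.95 in wild-type early, 0.57, 0.53 and 0.57 in knock-out early, 0.47, 0.54 and 0.40 in wild-type late and 0.35, 0.26 and 0.52 in knock-out late cells. The high value of wild-type early replicate 3 stood above the other 11 arrays, and the wild-type groups overlapped (-0.20, adjusted p = 0.32). Without that array the difference was -0.05, and without wild-type late replicate 3 it was -0.16. Racgap1 encodes a GTPase-activating protein of the central spindle that cytokinesis needs. Racgap1 read 1.08, 1.13 and 0.81 in wild-type early, 0.94, 1.07 and 1.17 in knock-out early, 0.98, 1.07 and 0.68 in wild-type late and 0.84, 0.90 and 0.89 in knock-out late cells. Its wild-type groups overlapped with a difference of -0.10 (adjusted p = 0.63), and without wild-type late replicate 3 the sign turned, to 0.02. Without wild-type early replicate 3 it was -0.19.

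**Figure D3:**
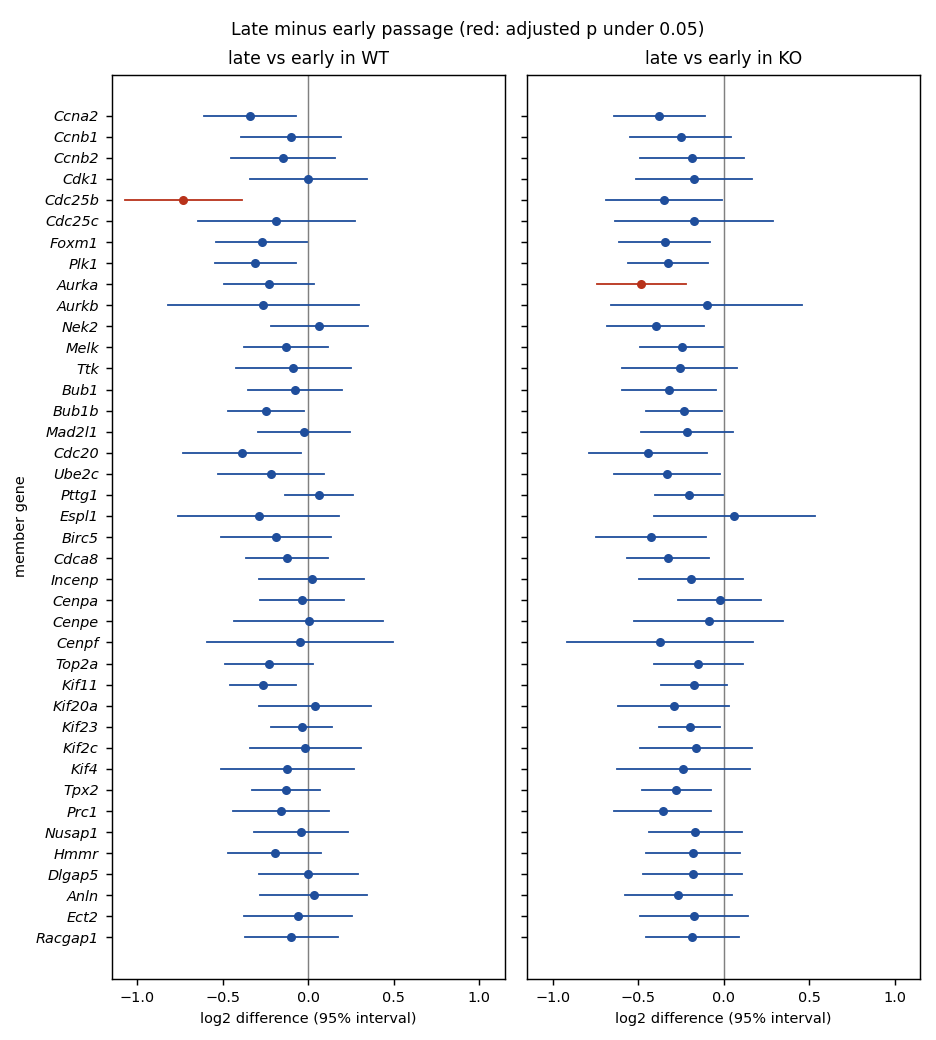
Late minus early difference (log2) of each of the 40 members in wild-type and in knock-out cells, with 95% intervals from limma. The differences run from -0.73 (Cdc25b) to 0.06 (Nek2) in wild-type cells and from -0.48 (Aurka) to 0.06 (Espl1) in knock-out cells.

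In knock-out cells, 1 of 40 members changed with passage and none rose: Aurka fell. Of all genes, 18.9% were called, 9.95% as higher and 9% as lower. Differences were negative for 39 of 40 members, with a median of -0.23 against -0.05 over all genes, of which 44.2% had a positive difference, and Espl1, the separase gene, was the exception (0.06, adjusted p = 0.87). Groups did not overlap for 27 members, all lower late (67.5% of the members, against 29.3% of all genes lower without overlap). Early and late groups overlapped for the other 13 members, Cdk1, Cdc25c, Aurkb, Nek2, Ttk, Espl1, Cenpa, Cenpe, Cenpf, Kif2c, Nusap1, Dlgap5 and Anln. At an unadjusted p under 0.05 there were 17 members, or 42.5% against 33.8% of all genes. The median was negative on every slide (-0.23, -0.32 and -0.18), with 36, 39 and 35 negative differences. The share of members called in this fit of all 4 groups, 2.5%, was below that of all genes. With only the knock-out arrays fitted, 12 members were called lower, or 30% against 27.7% of all genes called.

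Aurka encodes Aurora kinase A, which matures the centrosomes and helps activate PLK1. Aurka read 2.07, 2.10 and 2.30 in wild-type early, 2.29, 2.24 and 2.10 in knock-out early, 2.07, 2.03 and 1.69 in wild-type late and 1.69, 1.66 and 1.83 in knock-out late cells. Every knock-out late array lay below every knock-out early array, and in wild-type cells replicate 3 supplied the low late value. In knock-out cells Aurka fell by 0.48 (SE 0.12, 95% interval -0.74 to -0.22, a 1.40-fold change, limma adjusted p = 0.019), with slide differences of -0.60, -0.57 and -0.27. In wild-type cells the difference was -0.23 (adjusted p = 0.23), and the difference between the responses was -0.25 (95% interval -0.62 to 0.12, adjusted p = 0.52). The call was lost without knock-out early replicate 1 or 2 (adjusted p = 0.070 and 0.066) and without knock-out late replicate 1 or 2 (both 0.072). With wild-type late replicate 3 left out, which leaves these group means as they are, 5 of the 40 members were called lower (against 19.2% of all genes called): Aurka, Birc5, Cdc20, Cdca8 and Prc1. Without wild-type early replicate 3 there were also 5 (against 24.3% of all genes), namely Aurka, Ccna2, Cdc20, Plk1 and Tpx2.

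By role, all 6 cyclin, kinase and phosphatase genes of the first list were lower in knock-out late cells (median -0.22, none called), as were all 6 mitotic kinase genes (median -0.29, 1 called). Nek2, a centrosomal kinase gene, differed by -0.40 (adjusted p = 0.054) and Ccna2 by -0.38 (adjusted p = 0.052). The 3 checkpoint genes had a median of -0.23, with Bub1, the kinase that marks kinetochores, at -0.32 (adjusted p = 0.099). The 3 passenger subunits had a median of -0.32, with Cdca8, which encodes borealin, at -0.32 (adjusted p = 0.062). Of the anaphase genes, Ube2c, the ubiquitin-conjugating enzyme of the anaphase-promoting complex, was at -0.33 (adjusted p = 0.13). The 5 kinesin genes had a median of -0.20 and the 5 spindle protein genes a median of -0.18, among them Prc1, which bundles microtubules at the spindle midzone (-0.36, adjusted p = 0.076). The 4 kinetochore and chromatin genes had a median of -0.12. They ranged from -0.37 for Cenpf, read by a dim probe (adjusted p = 0.31), to -0.02 for Cenpa, the centromeric histone (adjusted p = 0.90).

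Both passage comparisons use separate arrays, and the test of whether the response differed by genotype called none of the 40 members (0.0871% of all genes were called). The difference of the responses, knock-out minus wild-type, had a median of -0.12 (all genes -0.02) and was negative for 31 members, where 46.6% of all genes were positive, and 1 member (Nek2) had an unadjusted p under 0.05, or 2.5% against 13.9% of all genes. On the slides the median was -0.19, -0.36 and 0.15, and the slide with wild-type late replicate 3 had the opposite sign. Without that array the median was -0.26 with 36 negative differences, and none was called. Nek2 had the lowest difference, -0.46 (95% interval -0.86 to -0.06, adjusted p = 0.31). The intervals had a median half-width of 0.41, between 0.25 and 0.79.

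**Figure D4:**
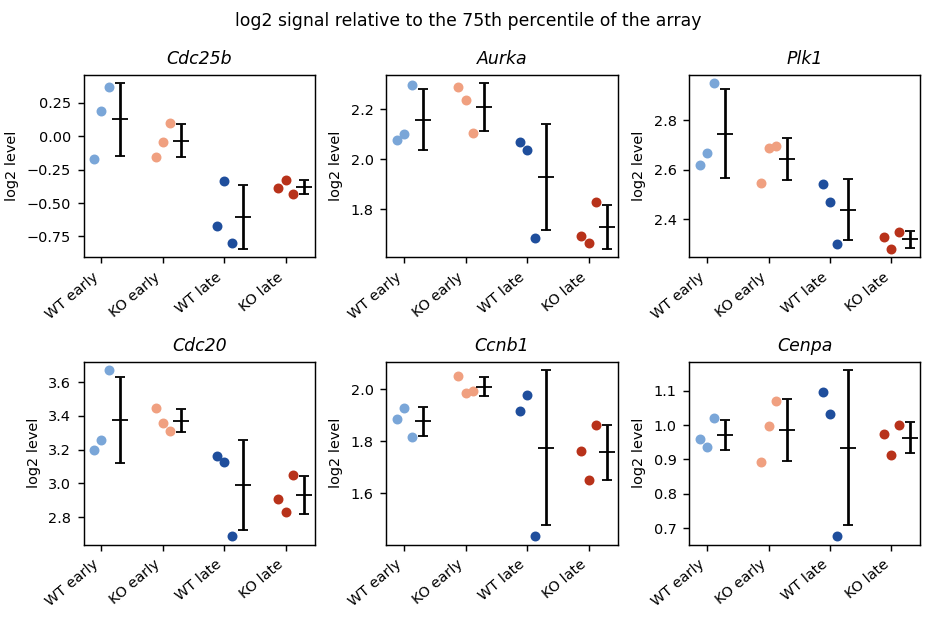
Level of selected members on every array (log2 relative to the array's 75th percentile) in the 4 groups, with points for arrays and bars for the mean ± SD. Late arrays lie below early arrays without overlap for Cdc25b, Plk1 and Cdc20 in both genotypes.

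Knock-out and wild-type cells were then compared at each passage, with the same arrays as in the passage comparisons. At early passage none of the 40 members was called, against 0.0359% of all genes, and none reached an unadjusted p under 0.05, against 5.99%. The differences, knock-out minus wild-type, had a median of 0.06 (all genes 0.02), and 30 were positive, where 53.5% of all genes were positive. Groups did not overlap for 8 members, all higher in knock-out cells (Ccnb1, Melk, Bub1, Birc5, Cdca8, Kif20a, Nusap1 and Ect2), or 20% against 5.24% of all genes higher without overlap. Of these, Kif20a differed by 0.32 (95% interval -0.01 to 0.65, adjusted p = 0.74), with 0.10, 0.23 and 0.64 on the slides. Without wild-type early replicate 3, where it was lowest, its difference was 0.15, and that of Nusap1, a spindle microtubule protein gene, went from 0.26 to 0.18. The slides' medians were 0.00, 0.09 and 0.10.

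At late passage none of the members was called either, against 7.83% of all genes, 3 had an unadjusted p under 0.05 (7.5%, against 24.9% of all genes), and the median difference was -0.04 (all genes -0.01) with 26 negative, where 48.7% of all genes were positive. Groups did not overlap for Pttg1 and Tpx2, both lower in knock-out cells (5% of members, against 20.3% of all genes lower without overlap). By slide the median was -0.19, -0.25 and 0.31, with 34, 38 and 2 members lower in knock-out cells. The slide with the opposite sign is that of wild-type late replicate 3. Without that array the median was -0.18, with 33 negative differences, 9 at an unadjusted p under 0.05 and none called.

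Pttg1 encodes securin, which holds separase inactive until anaphase. Pttg1 read 2.99, 2.94 and 2.84 in wild-type early, 2.99, 2.98 and 2.94 in knock-out early, 3.15, 2.98 and 2.84 in wild-type late and 2.77, 2.72 and 2.82 in knock-out late cells. The 3 knock-out late arrays were below all other arrays, with a difference from wild-type late of -0.22 (SE 0.090, adjusted p = 0.16), or -0.29 without wild-type late replicate 3. A second, less bright Pttg1 probe differed by -0.60, and with the mean of both probes the difference was -0.41 (adjusted p = 0.041). Tpx2 encodes the spindle protein that activates Aurora kinase A. Tpx2 read 0.89, 0.90 and 1.12 in wild-type early, 0.87, 0.88 and 0.93 in knock-out early, 0.91, 0.86 and 0.75 in wild-type late and 0.62, 0.53 and 0.71 in knock-out late cells. Its knock-out late arrays were again the lowest, at -0.22 from wild-type late (SE 0.090, adjusted p = 0.16), or -0.26 without wild-type late replicate 3.

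Anln encodes anillin, a scaffold of the contractile ring. Anln read 2.71, 2.52 and 2.74 in wild-type early, 2.86, 2.71 and 2.50 in knock-out early, 2.88, 2.67 and 2.53 in wild-type late and 2.40, 2.23 and 2.64 in knock-out late cells. Wild-type late replicate 3 lay within the range of the knock-out late arrays, and the difference was -0.27 (adjusted p = 0.27), or -0.35 without that array. Cdca8 followed a like order. Cdca8 read 2.21, 2.26 and 2.13 in wild-type early, 2.32, 2.33 and 2.27 in knock-out early, 2.26, 2.15 and 1.82 in wild-type late and 1.98, 1.94 and 2.03 in knock-out late cells. Its difference at late passage was -0.09 (adjusted p = 0.66), with wild-type late replicate 3 below the knock-out late arrays and the other wild-type late arrays above them. Without that array it was -0.22.

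Aurkb encodes Aurora kinase B, the catalytic subunit of the passenger complex, and was the member not above background on every array. Its probe was kept only because all 3 knock-out late arrays passed the background flag. The filter thus favoured a high knock-out late level, and the difference from that group is not read as a result. Aurkb read -6.29, -5.98 and -6.59 in wild-type early, -6.33, -5.91 and -6.01 in knock-out early, -5.96, -7.06 and -6.63 in wild-type late and -6.15, -6.28 and -6.12 in knock-out late cells. The wild-type late group had the widest spread (SD 0.55) and took in the knock-out late values, and the difference was 0.37 (95% interval -0.19 to 0.93, adjusted p = 0.41). It rested on wild-type late replicate 2: without that array the difference was 0.12, and without wild-type late replicate 3 it was 0.33. Cenpf encodes a kinetochore protein of G2 and mitosis. Its probe was dim: on knock-out late replicate 2 it lay at -6.19, where the dimmest probe well above background lay at -6.44. Cenpf read -5.53, -5.60 and -5.71 in wild-type early, -5.93, -5.51 and -5.39 in knock-out early, -5.93, -5.11 and -5.95 in wild-type late and -6.14, -6.19 and -5.61 in knock-out late cells. Wild-type late replicate 2 was the highest of the 12 arrays, and the difference was -0.32 (adjusted p = 0.47). Without that array it was -0.04, and without wild-type late replicate 3 it was -0.46. Of the members named above for passage, Cdc25b differed between the genotypes at late passage by 0.22 (adjusted p = 0.41), Bub1b by 0.14 (adjusted p = 0.43), Kif11 by 0.13 (adjusted p = 0.38) and Foxm1 by -0.04 (adjusted p = 0.88). Without wild-type late replicate 3 these were 0.13, 0.08, 0.11 and -0.12.

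**Figure D5:**
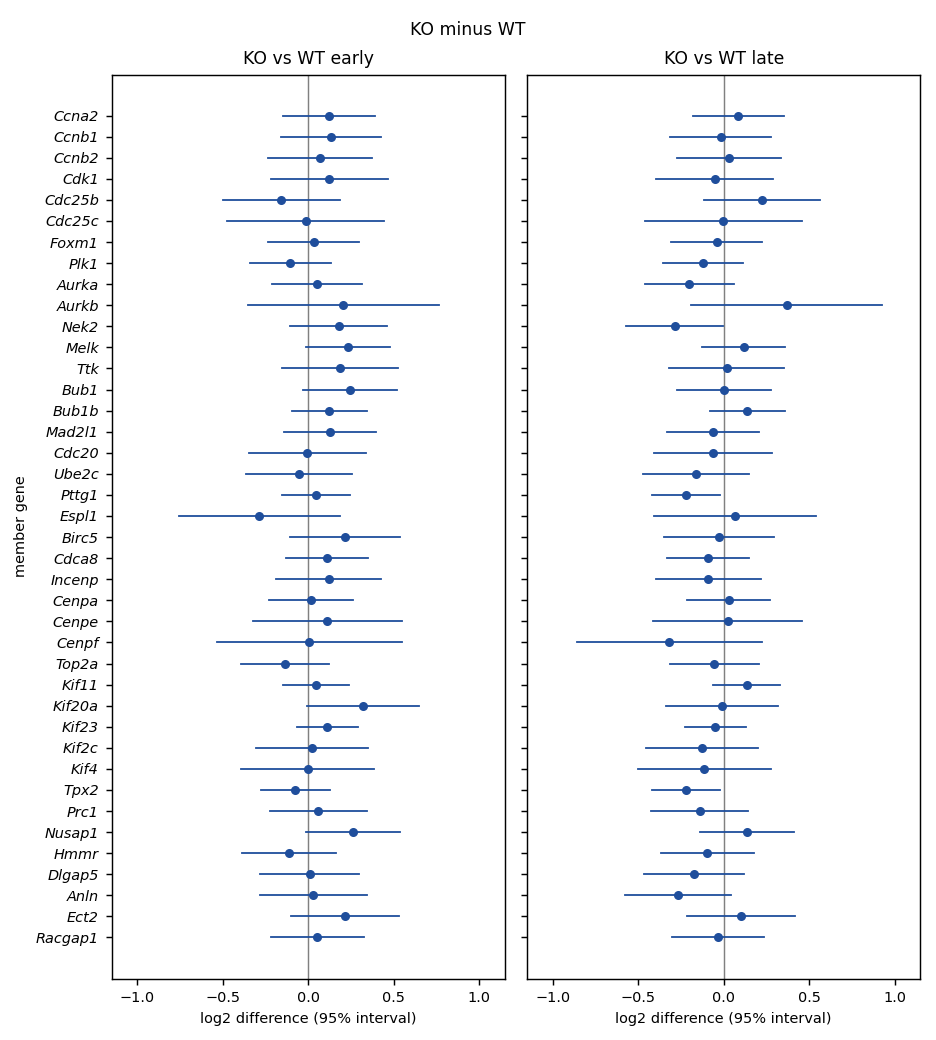
Knock-out minus wild-type difference (log2) of each of the 40 members at early and at late passage, with 95% intervals from limma. The differences run from -0.29 (Espl1) to 0.32 (Kif20a) at early and from -0.32 (Cenpf) to 0.37 (Aurkb) at late passage. The last pair was -0.04 and 0.12 without wild-type late replicate 2. Both probes were dim, and that of Aurkb was kept only through the knock-out late arrays.

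The half-width of a member's 95% interval had a median of 0.29 for the comparisons of 2 groups, between 0.18 and 0.56, and in these 4 comparisons the intervals lay within 1 log2 unit of 0 for all 40 members but Cdc25b in the wild-type passage comparison. Of the 13 members with several probes, all probes had the same sign for 10 in the early genotype comparison, 10 in the late one, 8 in the wild-type and 12 in the knock-out passage comparison. Those whose probes differed in sign in the wild-type passage comparison were Ccnb1, Cdk1, Dlgap5, Kif2c and Mad2l1.

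Other genes of the pathway were read from lists outside the set. Of 59 measured genes of mitosis (kinetochore, condensin, further kinesin and spindle genes), none was called at early passage between the genotypes, 2 were lower in knock-out late cells, 1 was lower late in wild-type cells, and 6 were lower late in knock-out cells, with none higher in any. These shares were 3.39%, 1.69% and 10.2%, where 7.83%, 10.6% and 18.9% of all genes were called in either direction. Called lower with passage were 4.37% of all genes in wild-type and 9% in knock-out cells. With passage in knock-out cells 53 of the 59 differences were negative, with a median of -0.19. Of the 59, 30 were lower without overlap, where 29.3% of all genes were. The fall in knock-out cells was thus not particular to the 40 members. Ccnf, the gene of cyclin F, a ubiquitin ligase subunit, was lower in knock-out late than in wild-type late cells (difference -0.45, SE 0.090, adjusted p = 0.018) and fell by 0.75 with passage in knock-out cells (adjusted p = 0.00096). Gtse1, a microtubule-binding protein gene of G2, was lower as well (-0.62, adjusted p = 0.012) and fell by 0.73 (adjusted p = 0.0025) in the same comparisons. Cenpw, a centromere protein gene, fell with passage by 0.60 in wild-type (adjusted p = 0.0031) and by 0.55 in knock-out cells (adjusted p = 0.0023). The remaining 3 called in knock-out cells were Cks1b (-0.50), Depdc1b (-0.37) and Tacc3 (-0.33).

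Of 15 genes of the DREAM, MuvB and E2F regulators 1 fell, E2f8, an E2F repressor, by 0.36 in knock-out cells with passage (adjusted p = 0.038), and none was called elsewhere. None of the 14 subunits of the anaphase-promoting complex was called. Of 41 measured genes of DNA replication and S phase, 5 fell with passage in knock-out cells, among them Rrm2 and Rrm1, the ribonucleotide reductase genes (-0.71, adjusted p = 0.0091, and -0.42, adjusted p = 0.0054), and Ccne1, cyclin E1 (-0.58, adjusted p = 0.011), and none was called elsewhere. The 5 are 12.2% of that list, against 9% of all genes called lower and 18.9% called in either direction. In that comparison 36 of the 41 differences were negative, with a median of -0.17. Of the 41, 25 were lower without overlap, where 29.3% of all genes were.

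Genes that restrain the cell cycle moved in both directions. Of 14 measured, 2 rose and 3 fell with passage in knock-out cells: Gadd45b rose by 0.70 (adjusted p = 0.021) and Btg2 by 0.43 (adjusted p = 0.044), and the inhibitor genes Cdkn2b (p15), Cdkn1a (p21) and Cdkn2d (p19) fell by 1.27, 0.77 and 0.64 (adjusted p = 0.0021, 0.0057 and 0.012). The 5 are 35.7% of the list, against 18.9% of all genes. In wild-type cells none of the 14 was called, where 10.6% of all genes were. There 9 of the 14 had an unadjusted p under 0.05, a larger share than the 28.4% of all genes. Of the 14 differences in wild-type cells 10 were negative, with a median of -0.24. The test of the difference between the responses called none of the 14. Between the genotypes at late passage Cdkn1a was lower (-0.66, adjusted p = 0.022) and Cdkn2c (p18) higher (0.63, adjusted p = 0.036) in knock-out cells. These 2 are 14.3% of the list, against 7.83% of all genes.

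Markers of other cell types were called in both passage comparisons and in the late genotype comparison, though not every type in each. Of all genes, 10.6% were called with passage in wild-type cells, 18.9% with passage in knock-out cells and 7.83% between the genotypes at late passage. The 18 macrophage markers had a median difference of -1.12 between knock-out and wild-type at late passage, with Cd68 and Lyz2 called lower, and of 0.86 with passage in wild-type cells, with Lyz2 called higher. These calls were 11.1% and 5.56% of the 18 markers. With passage in knock-out cells the macrophage median was -0.11, with 12 of the 18 differences negative and none called. Of 6 measured skeletal muscle markers, 3 fell with passage in wild-type and 2 in knock-out cells, and 1 was lower in knock-out late than wild-type late cells. In that order these were 50%, 33.3% and 16.7% of the 6 markers. Their summed level was 9.20 to 15.4, 7.94 to 11.53, 10.3 to 15.8 and 7.87 to 9.33 in wild-type early, knock-out early, wild-type late and knock-out late cells. Des and Actc1, which encode desmin and cardiac actin, fell in knock-out cells (-4.33 and -3.94). Of 5 measured epithelial markers, Krt18 and Krt19 fell with passage in knock-out cells (-2.67 and -1.75), and Krt19 was lower in knock-out late than wild-type late cells (-2.06). The calls in these 2 comparisons were 40% and 20% of the 5 markers. Their summed level was 1.00 to 2.23, 0.974 to 2.37, 1.42 to 1.81 and 0.411 to 0.455 in the same order of groups. None of 4 measured endothelial markers was called. Of the 16 fibroblast markers, 5 fell with passage in wild-type cells, 5 fell and 1 rose in knock-out cells, and 3 were higher and 2 lower in knock-out late than wild-type late cells, with sums of 792 to 945, 852 to 905, 660 to 733 and 712 to 784. The called fibroblast markers were 31.25%, 37.5% and 31.25% of the 16 in these comparisons. The part of these cell types in the members' differences was not tested. The array lowest for the members, wild-type late replicate 3, had the highest macrophage median of the 12 arrays (1.04 after centring). Wild-type late replicate 2 came next for the macrophage markers, at 0.91, with the members at 0.03. Knock-out late replicate 2, next lowest for the members at -0.20, had a macrophage median of 0.18.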

How the data were processed

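Total RNA of 12 fibroblast cultures was labelled with Cy3 and hybridised to Agilent one-colour arrays, 1 culture per array. Per the file headers, the deposited intensity values (processed signal, background-subtracted) were made with Agilent Feature Extraction 11.5.1.1, while the submitters' processing notes name 10.7.3.1. The authors' deposited value table holds log2 values of the same arrays; against centred scanner log2 values it differed by a median of 0.0072, which settled its scale and direction, and its filter was not stated. The probe annotation names mm9, and no coordinates were taken from it. Of 28290 probes with a RefSeq transcript accession, 27969 matched a symbol of the RefSeq table (GRCm38.p6).

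The log2 intensity minus the 75th percentile of each array was used. Outlier spots were left out and repeat spots averaged. Probes had to pass the well-above-background flag on every array of some group, and the brightest kept probe stood for a gene. One model of 4 group means over the 12 arrays (8 residual degrees of freedom) was fitted with limma 3.58.1 in R 4.3.3, and p-values were adjusted by Benjamini-Hochberg over 19507 genes. A gene was called at an adjusted p under 0.05. P-values measure the spread between these cultures.

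The members and lists were chosen with earlier results of these data known. Array values are given for members called in a comparison and for the member of each role with the largest difference in the wild-type passage and the late genotype comparison, and Ccna2 was added after its values were seen. Alternatives were quantile normalization, normexp with offset 50, another percentile, other filters, the mean of a gene's probes, a replicate block, only the groups compared, the authors' table and leaving out each array. Same-numbered wild-type early and wild-type late arrays, which share a slide, deviated together over all genes (correlations of 0.28, 0.24 and 0.14). Over the members these correlations were 0.22, -0.12 and 0.08. The main model has no term for such pairs, so its p-values do not use them, and the replicate block is the alternative that does. For the other pairs of groups the correlations over all genes were not all above 0.1. Over the members, those of the other pairs ran from -0.25 (knock-out early with knock-out late, replicate 3) to 0.41 (wild-type early with knock-out late, replicate 1). Wild-type early with knock-out early gave 0.28, 0.37 and 0.06. Liver samples named in the design text were not analysed here.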

Additional observations from a re-analysis of the deposited data

How the results depend on the processing

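The counts of called members were recomputed under 21 alternatives (20 for the genotype difference of the passage responses, which needs all 4 groups). At early passage and for the genotype difference of the responses the count was 0 in every one. At late passage between the genotypes it was 0, except for 1 (Pttg1) with the mean of all kept probes. In the wild-type passage comparison it was 1, except for 0 with only the 2 groups compared, and 0 to 1 with an array left out: 0 without wild-type late replicate 1, and Ccna2 in place of Cdc25b without wild-type early replicate 2. In the knock-out passage comparison it was 1 in the main setting, 3 with normexp (added after seeing the data), 0 with no filter on dim probes, 3 with only probes above background on all arrays, 12 with only the 2 groups compared (30% of the members, against 27.7% of all genes in that fit), and 0 to 5 with an array left out (0 without knock-out early replicate 1 or 2 or knock-out late replicate 1 or 2, and 5 without wild-type early or late replicate 3). The cause was not tested. Cdc25b was past the threshold in 18 of 21 alternatives (adjusted p 0.0084 to 0.11) and Aurka in 16 of 21 (0.0088 to 0.072).

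With the replicate number, equal to the slide, as a block, the counts of called members were 0, 0, 1, 1 and 0, and the block changed no call of a member. Same-numbered wild-type arrays deviated together over all genes in the check above, and whether through the slide or a shared source was not tested. For other pairs of groups, same-numbered arrays share a slide. Whether knock-out early and late arrays also share a source was not known from the labels. Their correlations over all genes were 0.03, 0.08 and -0.09, which cannot decide it.

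With an array left out, the members' median difference ranged over 0.06 to 0.09 (genotype, early), -0.18 to 0.03 (genotype, late), -0.19 to 0.01 (passage, wild-type), -0.28 to -0.20 (passage, knock-out) and -0.26 to -0.06 (difference of the responses). Of the named members' values, 6 changed sign: Racgap1 in the wild-type passage comparison to 0.016 without wild-type late replicate 3, and, at late passage between the genotypes, Foxm1 to 0.0051 with normexp, 0.031 without wild-type late replicate 2 and 0.045 without knock-out late replicate 2, Cdca8 to 0.00040 without wild-type late replicate 1, and Cenpf to 0.083 with normexp. With an array left out, Foxm1 ranged from -0.12 to 0.045 and Cdca8 from -0.22 to 0.00040 there. Limits are the 3 arrays per group, the signal of Aurkb near background, the dim signal of Cenpf, and slide positions that follow the groups.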
